A study of Rattus norvegicus with 6 samples.

Results

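Short liver RNAs of 18 to 22 nt that end in the bases CCA were compared between 3 Wistar rats with nonalcoholic fatty liver disease (NAFLD) and 3 normal Wistar rats. A distinct read sequence is called a tag, and the tags described here have a length of 18 to 22 nt, CCA as their last 3 bases and at least 30 reads summed over the 6 libraries. By this rule 1179 tags were kept, of 24937 tags of that length and end, 821821 tags of that length and 1528721 tags in all. They held 94.5% of the reads of the short CCA-ended tags. Since a read total chose them, their abundance is a description. The 71 members with 30 to 32 reads had a summed log2 ratio of NAFLD to normal of 1.36, and the 73 tags just outside, with 27 to 29 reads, had 1.65. The members were grouped by their last 16 bases into 258 families, so that tags with a common 3′ end and different 5′ starts stand together. Members of 1 family share these bases, may come from more than 1 RNA, and are not counted as replicates of each other.

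The NAFLD rats were fasted for 48 h and then had free access to a diet with 80% starch for 7 days, while the normal rats received a standard diet with 35% starch over the same 7 days. The study sequenced NAFLD livers picked for higher hepatic triglycerides and normal livers picked at random, with 1 library per rat, so the fast, the diet and the choice of livers cannot be told apart. The age is 4 months in the sample labels and 28 weeks in the study's methods. In whole liver, fewer cells of a type and less RNA per cell cannot be told apart. Each library held 11601058 to 11880695 clean reads, and TPM is the number of reads of a tag per 1000000 clean reads. A count of 0 reads allows up to 3 reads, or 0.259 TPM in the library with the fewest clean reads, from counting error alone. The hepatocyte miRNA miR-122-5p stood at 443735 to 594372 TPM in the 6 libraries.

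Every mature tRNA carries CCA at its 3′ end. An enzyme adds these bases after transcription, because the tRNA genes of animals do not encode them, and the amino acid is joined to the last A. Just upstream lie the acceptor stem and the T arm, a hairpin whose loop usually reads TTCRANN, where R is a purine and N any base. Cutting inside this loop releases 3′ fragments known as tRF-3, which are found in many tissues in a form of about 18 nt and a form of about 22 nt. Counted in tRNA numbering, a 22-nt form begins at base 55 of the loop, an 18-nt form begins at base 59, and the shared last 16 bases begin at base 61, normally a C that opens the 3′ strand of the T stem. Base 58 is an adenine that is methylated in many cytosolic tRNAs.

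The 10 most abundant families with these T arm features, called T1 to T10 by decreasing mean TPM, are shown first because the results turn on their 2 lengths. For each, the most abundant 18-nt and 22-nt members are given 5′ to 3′, with the T loop bases that precede the shared 16 bases in capitals.
T1, 18 nt: AAccgggcggaaacacca
T1, 22 nt: TCGTAAccgggcggaaacacca
T2, 18 nt: ATcacgtcggggtcacca
T2, 22 nt: TCAGGTcacgtcggggtcacca
T3, 18 nt: ATcccatcctcgtcgcca
T3, 22 nt: TCGTATcccatcctcgtcgcca
T4, 18 nt: ATcccggacgagccccca
T4, 22 nt: TCATATcccggacgagccccca
T5, 18 nt: TTccggctcgaaggacca
T5, 22 nt: TCGTTTccggctcgaaggacca
T6, 18 nt: GTccctgttcgggcgcca
T6, 22 nt: TCAGGTccctgttcgggcgcca
T7, 18 nt: TCcccggcatctccacca
T7, 22 nt: TCGATCcccggcatctccacca
T8, 18 nt: TTcccgggcggcgcacca
T8, 22 nt: TCGTTTcccgggcggcgcacca
T9, 18 nt: TTcccggccaacgcacca
T9, 22 nt: TCGTTTcccggccaacgcacca
T10, 18 nt: ATcctgttcgtgacgcca
T10, 22 nt: TCGTATcctgttcgtgacgcca

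The features of a tRNA 3′ end were checked on all members. A C stood at base 16 from the 3′ end in 81.8% of the 1179 members, against 20.4% of the other 14439 tags of 18 to 22 nt with at least 30 reads. All members of a family share that base, and 153 of the 258 families had a C there. Of the 322 members of 22 nt, 53.1% began with TCG or TCA, against 2.50% of 4272 other 22-nt tags. A T arm family needed that C and a tag of at least 30 reads that showed T loop bases. A match to a tRNA gene also sufficed. In a 22-nt tag the bases were TCGA or TCAA at its start, and in a longer tag TTCGA or TTCAA. Both end with the A at base 58. Families 1 substitution from a family at least 5 times as abundant were left out, unless they matched a tRNA gene. This left 36 families with 621 members, called T arm families below.

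Exact matches to rat tRNA gene sequence were found for 5 families in the RefSeq promoter windows of GRCr8, which cover few tRNA genes to their end. A match was kept only where the member without its CCA ended on the last base of the annotated gene. Of 56 members found anywhere in these windows without their CCA, 21 met this rule. The T2 family matched Trnaw-cca1, a tryptophan tRNA gene, and its matching 22-nt member without CCA lies at chr7:27565564-27565582 on the minus strand.
T2, gene-matched 22 nt: TCGAATcacgtcggggtcacca
The others were Trnag-gcc2 (glycine, chr10:54322802-54322820, minus strand), Trnal-aag1 (leucine, chr1:184897212-184897230, plus strand), Trnat-agu1 (threonine, chr1:97019967-97019985, minus strand) and, by an 18-nt member only, Trnan-guu8 (asparagine, chr7:10110733-10110747, minus strand). The amino acid of the other T arm families was not assigned.

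Not all members are tRNA ends. The most abundant family was that of miR-192-5p, a liver-enriched miRNA whose hairpin sequence happens to continue with an A after its annotated end CC. The annotated 21-nt form lies at chr1:212994232-212994252 on the plus strand (GRCr8, RefSeq), and the 22-nt member is shown with its seed, bases 2 to 8, in capitals. Below it stand the members with 1 or 2 substitutions, shown because they form families of their own, with the changed base in capitals.
miR-192-5p, 22 nt: cTGACCTAtgaattgacagcca
Variant A8C: ctgacctCtgaattgacagcca
Variant A16C: ctgacctatgaattgCcagcca
Variant A8C A16C: ctgacctCtgaattgCcagcca
Here A8C means that the first sequence has A at position 8, counted from its 5′ end, and the variant has C. The 22-nt miR-192-5p member had 7768, 3998 and 3789 TPM in NAFLD 1, 2 and 3, and 5039, 2494 and 6701 TPM in normal 1, 2 and 3. The groups overlapped, at a log2 ratio of group means of 0.13. In all, 9 members matched RefSeq miRNA sequence without a mismatch, namely 3 of miR-192-5p, 2 of miR-339-3p and 1 each of miR-23a-3p, miR-23b-3p, miR-139-5p and miR-223-3p.

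The libraries fell into 2 sets by their rate of substituted bases. At read position 4 of 50 abundant tags, a median of 0.808% to 0.892% of reads were substituted in NAFLD 2, NAFLD 3 and normal 2, and 0.0431% to 0.046% in NAFLD 1, normal 1 and normal 3. Among the members, 332 had at least 95% of their TPM in the first 3 libraries, and 293 of these lay 1 base away from a tag with at least 5 times their reads. The A8C family is an example. It had 985 and 935 TPM in NAFLD 2 and 3 and 596 TPM in normal 2, but 0, 0.0844 and 0 TPM in NAFLD 1, normal 1 and normal 3. The 144 families that are 1 substitution from a family at least 5 times as abundant, with no miRNA or tRNA gene match, held 316 members. They are kept apart from the T arm families. As 2 NAFLD libraries and 1 normal library are in the high set, the sums over T arm families are also given within the sets, as NAFLD 1 against normal 1 and 3 (the low set) and as NAFLD 2 and 3 against normal 2 (the high set).

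The short T arm fragments stood higher in the NAFLD group on average, and their 18-nt forms by more than their 22-nt forms. Summed over the 36 T arm families, members of all 5 lengths had 13024, 7023 and 4499 TPM in the NAFLD rats and 5975, 2117 and 3104 TPM in the normal ones. The groups overlapped, since NAFLD 3 lay below normal 1, and the log2 ratio of group means was 1.13. It was 1.52 within the low set and 1.44 within the high set. The pooled ratio stood beside a median log2 fold change of 0.90 over all 19492 tags tested, which are of every length. Among those of 18 to 22 nt the median ran from 0.64 at 21 nt to 1.33 at 18 nt. The level thus differed between NAFLD 1 and the other NAFLD libraries and between normal 1 and the other normal ones, and NAFLD 1 was the highest library in 33 of the 36 families and normal 1 the highest normal library in 34.

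The 18-nt members of the T arm families had 4113, 1154 and 992 TPM in NAFLD 1, 2 and 3, against 1244, 180 and 244 TPM in normal 1, 2 and 3. Normal 1 lay above NAFLD 2 and 3, so the groups overlapped, and the log2 ratio of means was 1.91. It was 2.47 within the low substitution set and 2.58 within the high one. Single libraries moved it: it was 0.95 without NAFLD 1 and 3.30 without normal 1. The 22-nt members had 2010, 1451 and 963 TPM in the NAFLD rats and 1268, 701 and 1059 TPM in the normal ones. These groups overlapped more closely, at a log2 ratio of 0.55, which was -0.15 when the libraries were scaled by edgeR's TMM factors. Within the low and the high set it was 0.79 and 0.78.

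The lengths between followed neither form exactly. The log2 ratio was 1.07 at 19 nt (1.59 within the low set, 1.66 within the high set), 1.34 at 20 nt (1.56 and 1.78) and 0.85 at 21 nt (1.12 and 1.17). Without the T6 family the value at 20 nt was 0.88. As a share of T arm members' TPM, the 18-nt forms took 23.4% ± 7.66 (SD, n = 3) in NAFLD and 12.4% ± 7.31 in normal livers, and the 22-nt forms 19.2% ± 3.25 and 29.5% ± 7.17. Both shares overlapped between the groups.

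The balance of the 2 forms does not depend on the scaling of a library. The log2 ratio of 22-nt to 18-nt TPM over the T arm families was -1.03, 0.33 and -0.04 in NAFLD 1, 2 and 3, and 0.03, 1.96 and 2.12 in normal 1, 2 and 3. Normal 1 lay among the NAFLD libraries. The mean was lower by 1.62 in the NAFLD group, with -0.25 ± 0.70 against 1.37 ± 1.17. Both forms were read in all libraries in 26 T arm families, and in all 26 of them the 18-nt log2 ratio of NAFLD to normal exceeded the 22-nt one. The 18-nt ratios ran from 1.21 to 3.59 with a median of 1.88, and the 22-nt ratios from -0.08 to 1.04 with a median of 0.51. By the two-sided exact permutation test on each family's log2 ratio of 22 to 18 nt, 11 of the 26 families reached p = 0.1, the lowest value possible with 3 libraries in each group. The families share their libraries and are not independent. Over all tested tags the median log2 fold change was also higher at 18 nt, at 1.33, than at 22 nt, at 0.65. Ends outside the T arm families were not counted in this way, so these counts have no background.

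Short reads in general moved with these values. Reads under 18 nt that the authors had removed were 1.85%, 0.483% and 0.427% of high-quality reads in NAFLD 1, 2 and 3, and 0.451%, 0.0706% and 0.0839% in normal 1, 2 and 3. The order of the 6 libraries in these percentages is the same as in the TPM of all 18-nt members, which was 4358, 1535, 1301, 1333, 239 and 253. As a percentage of clean reads, all 18-nt reads came to 2.06%, 1.01% and 0.852% against 0.894%, 0.186% and 0.278%. Of those 18-nt reads, members were 21.1%, 15.3% and 15.3% against 14.9%, 12.8% and 9.10%. Among the 64 possible last 3 bases, CCA had the third highest log2 ratio at 18 nt, 2.01 beside a median of 1.34. At 22 nt it ranked 38, with 0.45 beside a median of 0.49. The 2 ranks rest on different RNAs. The miRNA families held 5270 of the 7683 TPM that 22-nt members averaged over the 6 libraries, at a log2 ratio of 0.19. All 141 members of 18 nt lay outside the miRNA families. The part of RNA breakdown or size selection in these values was not tested.

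T1 was the most abundant T arm family, with 75 members and 1521 TPM on average. Its 18-nt forms had 1103, 396 and 357 TPM in NAFLD 1, 2 and 3, and 348, 69.5 and 79.8 TPM in normal 1, 2 and 3. These groups did not overlap, though normal 1 came close to NAFLD 3, and the log2 ratio was 1.90. Its 22-nt forms had 703, 531 and 354 TPM against 443, 308 and 493 TPM, with overlap, at 0.35. T2, the family that holds the Trnaw-cca1 end, averaged 969 TPM. Its 18-nt forms had 623, 208 and 184 TPM against 230, 34.2 and 61.6 TPM, at a log2 ratio of 1.64. Its 22-nt forms had 289, 157 and 95.8 TPM against 104, 77.0 and 111 TPM, at 0.89. In T2 both forms overlapped between the groups.

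T3 averaged 731 TPM, and its 18-nt forms exceeded its 22-nt forms in every library. They had 614, 133 and 105 TPM in the NAFLD rats and 175, 20.7 and 18.9 TPM in the normal ones, at a log2 ratio of 1.99, and normal 1 lay above NAFLD 2 and 3. The log2 ratio of its 22-nt forms was 0.51. The 18-nt forms of T4 (633 TPM) had 672, 113 and 70.7 TPM against 133, 15.6 and 35.9 TPM, at 2.21, again with normal 1 inside the NAFLD range. Its 22-nt forms had 269, 157 and 83.4 TPM against 102, 63.8 and 101 TPM, at 0.93. NAFLD 1 alone stood far above the other libraries at 18 nt.

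T5 (426 TPM) had more 22-nt than 18-nt reads in every library. Its 18-nt forms had 113, 35.2 and 24.1 TPM against 27.2, 2.27 and 3.62 TPM, at a log2 ratio of 2.39. Its 22-nt forms had 285, 230 and 150 TPM against 231, 73.1 and 138 TPM, at 0.59. The exact permutation test on its 22-nt to 18-nt ratio gave p = 0.1, as it did for T3, T9 and T10. For T1, T7 and T8 it gave 0.2, for T4 0.3 and for T2 0.4.

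T7 to T10 held the same forms at lower levels. The 18-nt forms of T7 (269 TPM) had 281, 61.2 and 71.6 TPM in the NAFLD rats and 94.5, 7.67 and 14.5 TPM in the normal ones, at 1.83, beside 0.61 for its 22-nt forms. Those of T8 (188 TPM) had 33.4, 9.27 and 3.98 TPM against 6.41, 1.10 and 1.18 TPM, at 2.42, beside 0.46 at 22 nt. Those of T9 (108 TPM) had 37.9, 7.91 and 6.77 TPM against 9.11, 0.758 and 1.43 TPM, at 2.22, beside 0.35 at 22 nt. In these 3 families normal 1 reached or passed the lower NAFLD libraries. Those of T10 (86.1 TPM) had 121, 41.2 and 36.8 TPM against 41.8, 6.40 and 6.99 TPM, at 1.85, beside 0.65 at 22 nt. Normal 1 lay just above NAFLD 2 there as well. In T8 and T9 the edgeR fitted log2 fold change of the whole family, 0.70 and 0.65, was -0.06 and -0.03 by DESeq2.

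T6 stood apart from the other families. Its members together had 768, 809 and 437 TPM in NAFLD 1, 2 and 3, and 44.1, 58.9 and 24.3 TPM in normal 1, 2 and 3. The lowest NAFLD library lay far above the highest normal one, and the means of 671 ± 204 and 42.4 ± 17.3 TPM gave a 15.8-fold ratio, or 3.98 on the log2 scale. The next highest log2 ratio among T arm families was 2.18. Within the low and the high substitution set alike, the NAFLD libraries lay above the normal ones. Its 18-nt and 22-nt forms were rare, at 5.26, 1.11 and 0.593 TPM against 0.928, 0.0842 and 0 TPM for 18 nt, and 20.2, 19.6 and 13.5 TPM against 5.57, 5.22 and 3.62 TPM for 22 nt. The family was carried by 1 tag of 20 nt, shown because it set the ratio.
T6, 20 nt: AGGTccctgttcgggcgcca
This tag begins at base 57 of the T loop. It had 688, 637 and 349 TPM in the NAFLD rats and 19.2, 37.7 and 14.9 TPM in the normal ones, from 7976, 7496, 4121, 228, 447 and 177 reads. The groups were far apart, at 558 ± 183 and 23.9 ± 12.1 TPM.

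In edgeR's quasi-likelihood test the T6 end had a log2 fold change of 3.97 ± 0.48 (SE), an unadjusted p of 0.000112 and a Benjamini-Hochberg adjusted p of 0.690, and did not pass. The adjusted p ran from 0.000354 to 0.959 over 15 alternatives, and 4 of them fell under 0.05, namely DESeq2, at least 10 reads in every library, the substitution set as a covariate and substitution variants merged. The log2 fold change was between 2.98 and 4.28 in all 15. The 20-nt tag had 4.54 ± 0.54, an unadjusted p of 0.000135 and an adjusted p of 0.499 in edgeR's tag test, and fell under 0.05 in 3 of 15 alternatives. It was followed by 2 rare 22-nt members of T6, at 8.28, 6.21 and 3.64 TPM against 0.422, 0.758 and 0.505 TPM and at 4.83, 6.63 and 3.56 TPM against 0.0844, 0.421 and 0.0842 TPM. Their log2 fold changes were 3.40 ± 0.58 and 4.60 ± 0.84, with an adjusted p of 0.499 each.

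No member passed the test across all tags. Of the 1179 members, 777 had enough reads for edgeR's fit, and 0 of them had an adjusted p under 0.05, beside 0.0% of all 19492 tags. At an unadjusted p under 0.05, 28 of the 777 were higher in the NAFLD rats (3.60%) and 0 were lower, beside 9.48% higher and 0.0308% lower among all tags. In 88 of the 777 (11.3%) every NAFLD library exceeded every normal one, and in 0 the reverse held, beside 18.9% and 0.585% of all tags. All tags here means tags of every length, also above 22 nt, so the shares are not matched by length. Members without overlap were 14 of 81 (17.3%) at 18 nt, beside 14.2% of all tags of that length. At 19 nt they were 6 of 121 (4.96%), beside 9.34%, and at 20 nt 11 of 142 (7.75%), beside 9.19%. At 21 nt they were 32 of 197 (16.2%), beside 8.75%, and at 22 nt 25 of 236 (10.6%), beside 8.13%. DESeq2 gave 1 member with an adjusted p under 0.05, the 20-nt T6 tag, beside 0.0872% of all tags, and limma gave 0.

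Split by length, T arm members without overlap were more frequent than all tags of the same length at 18, 21 and 22 nt, close to them at 20 nt and less frequent at 19 nt. Of 38 fitted T arm members of 18 nt, 10 (26.3%) did not overlap, beside 14.2% of all 888 tested tags of 18 nt. At 19 nt it was 4 of 80, beside 9.34%, and at 20 nt 10 of 102 (9.80%), beside 9.19%. At 21 nt it was 29 of 124 (23.4%), beside 8.75%, and at 22 nt 18 of 125 (14.4%), beside 8.13%. These members share families and libraries, so the shares are a description. The median log2 fold change of these 38 was 2.18, beside 1.33 for all 18-nt tags, and that of the 125 of 22 nt was 0.77, beside 0.65 for all 22-nt tags. The members in the fit are those with enough reads in at least 1 group, so these shares describe the fitted tags only.

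With the substitution set as a covariate, edgeR gave 8 members of 777 an adjusted p under 0.05, all higher in the NAFLD rats (1.03%), beside 0.959% of all tags higher and 0.0103% lower. Of these, 5 belonged to T6. The others were the most abundant 18-nt form of T4, the second most abundant 18-nt form of T1 and a rare 22-nt tag of an unnamed T arm family. The T4 tag, printed first above for that family, had 668, 108 and 67.7 TPM in the NAFLD rats and 133, 14.7 and 35.9 TPM in the normal ones, with a log2 fold change of 2.78 ± 0.49 and an adjusted p of 0.0482 in that fit. The T1 tag had 228, 56.8 and 54.3 TPM against 60.2, 13.9 and 22.2 TPM, with 2.24 ± 0.41 and an adjusted p of 0.04995. In both, NAFLD 1 and normal 1 were the highest of their groups.
T1, second 18 nt: GAccgggcggaaacacca

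The test on whole ends gave the same count. Of the 258 families, 203 entered edgeR's fit of 6135 ends, and 0 had an adjusted p under 0.05, beside 0.0% of all ends, with 0.690 the smallest value. At an unadjusted p under 0.05, 19 of 203 were higher (9.36%), beside 5.25% of all ends, and 6 of the 36 T arm families were. Most of the others among these 19 were families 1 substitution from a more abundant one, which are kept apart from the T arm families. In 6 of the 36 (16.7%) the NAFLD libraries all lay above the normal ones, beside 12.0% of all ends. The median log2 fold change of the T arm families was 1.05, beside 0.81 for all ends, and 28 of the 36 lay above that median. Under TMM scaling the median of all ends was 0.13. Of the 36 T arm families, 33 kept a value above 0 and 29 lay above that median.

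Besides T6, the T arm families without overlap were low in abundance. The largest of them averaged 53.4 TPM, with 132, 67.9 and 47.3 TPM in the NAFLD rats and 39.4, 10.8 and 23.2 TPM in the normal ones. The other 4 averaged 2.88 to 10.3 TPM. The families that matched tRNA genes all overlapped. The Trnag-gcc2 family had 124, 92.2 and 62.6 TPM against 112, 33.1 and 39.7 TPM, and the Trnal-aag1 family had 117, 59.4 and 49.0 TPM against 83.6, 15.7 and 15.1 TPM. The Trnat-agu1 family had 54.0, 26.3 and 24.8 TPM against 41.4, 10.02 and 8.33 TPM. In all 3, normal 1 lay within the NAFLD range. The Trnan-guu8 family had 31.7, 10.2 and 6.86 TPM against 8.86, 2.11 and 1.85 TPM, and its 18-nt forms came mainly from NAFLD 1, at 20.1 TPM beside 0.421 to 2.55 TPM in the other 5 libraries.

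The base read at position 58 of the tRNA, base 19 from the 3′ end, differed widely between families. In the 22-nt forms of the T arm families together an A was read in 22.01%, 22.8% and 21.4% of reads in NAFLD 1, 2 and 3 and in 20.6%, 20.8% and 22.1% in normal 1, 2 and 3. A T was read in 53.6% ± 0.95 and 55.6% ± 2.62, and a G in 22.4% ± 0.83 and 21.4% ± 2.15. The groups overlapped for each of these bases. A was under 50% in 17 of the 18 families with enough 22-nt reads, and its mean over libraries ran from 7.85% to 58.5%. A T arm family needed a tag with A at this base or a tRNA gene match, so these shares do not cover families without either. The 22-nt members that match the tryptophan, glycine and threonine tRNA genes hold an A there, as the genes do. In the T2 family, which holds the tryptophan match, A was nevertheless read in only 13.1% to 14.9% of 22-nt reads, and G in 50.5% to 53.5%.

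In 4 of the 18 families (22.2%) the share of A was higher in every NAFLD library than in every normal one, and in 0 (0.0%) it was lower in every one, each with p = 0.1 in the two-sided exact permutation test, the lowest possible. The widest of these differences with over 100 reads in each library was in the glycine family, with 20.1%, 20.2% and 17.4% in NAFLD 1, 2 and 3 and 13.8%, 14.4% and 12.3% in normal 1, 2 and 3. In T8 it was 12.2% ± 0.89 against 9.78% ± 0.82, and in T4 21.8% ± 1.00 against 20.3% ± 0.18. In the threonine family, read only 50 times in normal 3, it was lowest there and 21.1% to 29.6% in the other libraries. Whether base modification bears on these values was not tested.

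T8 and T9 shared a pattern, and T6 and T7 differed from it. T8 and T9 read T in 84.5% to 88.8% and in 85.9% to 92.6% of 22-nt reads. T6 read G in 55.6% to 80.2%, from only 36 to 84 reads a library. T7 was the family above 50% A, with 55.9% to 62.1%. In longer forms, of 23 nt or more, T7 read A in 77.1% to 88.5% and T1 read A in 13.6% to 16.3%, whereas the 22-nt forms of T1 read A in 23.5% to 25.8%.

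Among the T arm members, which were chosen for ending in CCA, these ends were nearly complete. Tags frequent only without the last A could not enter this count. For T arm members of 20 nt or more, the tags that lack the last A or the last CA were also counted. CCA made up 96.4%, 98.9% and 98.7% of the 3 ends in the NAFLD rats and 95.6%, 98.5% and 94.8% in the normal ones, so the groups overlapped. T4 was the least complete named family, at 90.8%, 97.0% and 96.9% against 86.2%, 95.7% and 82.5%. The high-substitution libraries, NAFLD 2, NAFLD 3 and normal 2, had the 3 highest values, both over all T arm families and in T4. The miR-192-5p family, in which CCA is not a tRNA end, had CCA in 45.7% to 51.0% of these reads. In T6 the shortened ends kept the difference between the groups, at 33.4, 5.02 and 3.39 TPM against 1.18, 0.674 and 0.673 TPM for ends in CC.

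Longer tags with the same last 16 bases, which did not choose the members, were also counted. A long tag with T loop bases could place a family in the T arm class, so the values over that class are a description. Over the T arm families, forms of 23 to 25 nt had 6171, 4421 and 2910 TPM in the NAFLD rats and 2650, 1988 and 2139 TPM in the normal ones. These groups did not overlap, at a log2 ratio of 0.99 (1.37 within the low set, 0.88 within the high set). Forms of 26 nt or more had 7827, 4312 and 5285 TPM against 127, 901 and 173 TPM, at a log2 ratio of 3.86, and did not overlap either. The ratio was 5.70 within the low set and 2.41 within the high set. Long tags in general were also more abundant in every NAFLD library: all reads of 26 nt or more came to 33838, 27981 and 32959 TPM against 6252, 15373 and 6324 TPM, a log2 ratio of 1.76. Of the 36 T arm ends, 35 did not overlap at 26 nt or more and lay above the normal libraries, among them T1 to T10, and 0 lay below, beside 60.1% above and 0.0% below of all 2840 ends of that length with at least 30 reads. Their median log2 ratio was 3.05, beside 1.75 for all these ends. At 23 to 25 nt 17 of the 36 (47.2%) lay above and 0 below, beside 24.3% and 1.06% of 6904 ends, and the medians were 1.05 and 0.81. T6 made up the largest part of the T arm forms of 26 nt or more, with 4599, 2460 and 2995 TPM against 51.8, 414 and 63.6 TPM, a log2 ratio of 4.25. At 23 to 25 nt T6 had 109, 74.2 and 87.1 TPM against 11.8, 22.5 and 17.8 TPM. At 26 nt or more T5 had 370, 305 and 346 TPM against 7.34, 57.03 and 14.5 TPM, and T3 had 473, 200 and 322 TPM against 8.27, 26.1 and 5.98 TPM. In these longest forms normal 2 was the highest normal library, not normal 1.

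The remaining named families were not T arm ends. The miR-192-5p family as a whole had 8303, 4977 and 4689 TPM against 5507, 3134 and 7205 TPM, at a log2 ratio of 0.18, which was below 0 under TMM scaling, by DESeq2, and without NAFLD 1 or normal 2. The annotated 21-nt mature form, which ends in CC and is no member, had 6822, 3792 and 3570 TPM against 5490, 2445 and 6216 TPM. The A16C variant family had 549, 542 and 351 TPM in NAFLD 2, NAFLD 3 and normal 2 and at most 0.0862 TPM in the others. The A8C A16C variant had 478, 472 and 292 TPM in the same 3 libraries and 0 TPM in the others. A family with no T arm features and no match, of 93.5 TPM on average, had 143, 112 and 72.9 TPM against 139, 38.1 and 56.6 TPM, with overlap.

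Among the 78 families with a mean of at least 5 TPM, T6 had the highest ratio of NAFLD to normal. The next 2, at log2 ratios of 3.77 and 3.29, were 1 substitution from T4 and from T1 and had 99.9% and 99.6% of their TPM in the 3 high-substitution libraries. The 3 lowest were an unmatched end at -0.59, miR-23b-3p at -0.22 and miR-192-5p at 0.18. The unmatched end had 2.15 TPM in NAFLD 1 and 12.2 to 33.9 TPM in the other 5 libraries, and its fitted value was 0.03 without NAFLD 1. The miR-23b-3p member had 14.6, 8.93 and 13.1 TPM against 17.1, 8.17 and 17.3 TPM, with overlap. Of single members with a fitted value below 0, the 3 with the smallest p in edgeR's tag test had log2 fold changes of -0.66 ± 0.61, -0.85 ± 0.86 and -0.91 ± 1.13 and adjusted p of 0.812 to 0.825. All 3 lack T arm features, their groups overlapped, and 2 of them belong to the unmatched end at -0.59.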

How the data were processed

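Gel-purified liver small RNA was sequenced by the authors, who removed low-quality reads, adaptor contaminants, poly A reads and reads under 18 nt. For each library they deposited the raw count of reads of every clean tag with its length, and a log of the reads removed, not filtered for a genome match. The submitters' processing notes name Rnor 5.0, which no deposited count used here needed. TPM was computed from the deposited counts over the clean reads of the log.

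Members, families and lists were chosen with earlier results of these data known. Members are tags of 18 to 22 nt that end in CCA, with at least 30 reads in all, grouped by the last 16 bases. Tags with at least 15 reads, and ends summed over all tags of 18 to 22 nt, were tested across the whole table with edgeR 4.0.16 (glmQLFit, glmQLFTest, filterByExpr, library size equal to clean reads) in R 4.3.3, with Benjamini-Hochberg adjustment and a threshold of 0.05. The SE is the absolute log2 fold change over the square root of F. DESeq2 1.42.0 and limma 3.58.1 were alternatives. The scripts were tested on simulated data. Other steps used Python 3.11.15, pandas 2.3.3 and numpy 2.4.6. p-values measure the spread between libraries, 1 for each rat. In the main tests this spread holds differences between rats and between the 2 substitution sets alike.

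Named are the 10 most abundant T arm families, the 5 most abundant others, the 3 highest and 3 lowest ratios among families of at least 5 TPM, and members with an adjusted p under 0.05, or else the 3 smallest p in each direction. The division of libraries by substitution rate, at the largest gap, was made after the data were seen, and so was the class of families 1 substitution from another. The background for longer forms is every end of that length with at least 30 reads in all. Sequences and matches are from RefSeq tables for GRCr8. The 11601058 to 11880695 clean reads make counting error small beside the spread between libraries, and limits for a count of 0 cover counting error only.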

Additional observations from a re-analysis of the deposited data

How the results depend on the processing

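Members with an adjusted p under 0.05 numbered 0 in edgeR's test of tags and also with TMM, limma, no filter, merged variants, the replicate block and each library left out. They numbered 1 by DESeq2, 1 when every library needed 10 or more reads, and 8 with the substitution set as a covariate. For whole ends the count was 0 in the main test, 2 by DESeq2, and 1 each with the covariate, with variants merged and with 10 or more reads demanded of every library. At an unadjusted p under 0.05 the main test gave 28 members and 19 ends. Under edgeR's TMM factors the summed log2 ratio moved from 0.75 to 0.064 for all members, from 0.43 to -0.26 for their 22-nt forms and from 0.55 to -0.15 for the 22-nt T arm forms. TMM moved the median of all tags from 0.90 to 0.23. Without the miRNA families the ratio was 1.20 for all members and 0.98 at 22 nt, and without the most abundant family 1.20 and 0.96. The substitution variants of that family stayed in all of these values, so none is free of miRNA reads. Almost all their reads came from the high-substitution libraries. The largest variant family averaged 640 TPM at 22 nt in NAFLD and 199 TPM in normal livers. Without the miRNA families, the 22-nt ratio was 0.75 within the low set and 0.72 within the high set.

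Leaving out 1 library gave 0.50 to 0.93 for all members, 1.22 to 3.29 at 18 nt and 0.28 to 0.59 at 22 nt, and for T arm families 0.63 to 1.65, 0.95 to 3.30 and 0.26 to 0.78. The log2 ratio of 22 to 18 nt differed by -2.61 to -1.27 over all members and -2.29 to -1.23 over T arm families. For both counts of calls this range was 0 to 0.

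Named ends turned direction in 14 cases, each far from the threshold. By DESeq2, T8 was at -0.060, T9 at -0.033, miR-192-5p at -0.67 and the unmatched abundant end at -0.13. By TMM the last 2 were at -0.58 and -0.0499. Without NAFLD 1, miR-192-5p was at -0.13 and the lowest unmatched end at 0.0311, and without normal 2 miR-192-5p was at -0.09. The miR-23b-3p end was at 0.0704 without NAFLD 2, 0.06 without normal 1, 0.05 without normal 3, 0.15 with the covariate and 0.0494 with variants merged. With 1 library left out, the full ranges were -0.13 to 0.47 for miR-192-5p, -0.71 to 0.0311 for the lowest unmatched end and -0.34 to 0.0704 for miR-23b-3p. For T1 to T10, defining the family by its last 14 bases, or by its most abundant 18-base end, moved no ratio by more than the spread between libraries. The other named families were not redefined in this way.

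Replicate numbers did not pair the libraries. The deviations of same-numbered libraries correlated at 0.74, 0.72 and -0.59, and the replicate block gave 0 members and 0 ends under an adjusted p of 0.05, with 82 members and 50 ends under an unadjusted p of 0.05. With 3 libraries a group, single rats, normal 1 and NAFLD 1 above all, set the 18-nt values.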
